A study of Rattus norvegicus with 3 samples.

Results

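The 10 genes described here belong to the transforming growth factor beta (TGF-beta) pathway. They are the ligand genes Tgfb1, Tgfb2 and Tgfb3, the receptor genes Tgfbr1, Tgfbr2 and Tgfbr3, the latent TGF-beta binding protein genes Ltbp1 and Ltbp2, the TGF-beta-induced matrix protein gene Tgfbi and the inhibitory Smad gene Smad7. They were listed by gene symbol, with earlier results of these data known. All 10 were found among the 17328 genes of the count matrices, each with UMIs in every library. A UMI (unique molecular identifier) marks 1 captured RNA molecule. The nuclei came from the spinal cord lesion epicenter of wild-type Sprague Dawley rats (strain label SDrat) of 17 weeks, which was taken 49 days after the cord had been injured. Each of the 3 groups had 1 library: injured cord with no treatment, injured cord that had carried an implanted scaffold for 7 days, and injured cord that had carried for the same time a scaffold releasing hepatocyte growth factor (HGF), a ligand of the receptor MET. All groups shared the injury, uninjured cord is not among the groups, and the labels give neither the scaffold material nor the number of animals behind each library. No value has a replicate, so groups are compared without tests or p-values.

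TGF-beta is secreted as an inactive complex with its own propeptide, and LTBP proteins such as that of Ltbp1 bind that complex and tether it to the extracellular matrix. Integrins, proteases and thrombospondin release the active ligand, which binds the type II receptor (Tgfbr2). This recruits and phosphorylates the type I receptor (Tgfbr1), and the Smad2 and Smad3 proteins carry the signal to the nucleus. Tgfbr3, or betaglycan, is a coreceptor that presents ligand, and is needed most for the TGF-beta2 ligand. Smad7 is induced by the pathway and blocks the type I receptor. Tgfbi encodes a secreted matrix adhesion protein first cloned as a TGF-beta-induced gene. In the injured spinal cord the pathway is known for its part in scar formation by fibroblasts and astrocytes.

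The deposited matrices held 2252 nuclei for the untreated, 2168 for the scaffold and 906 for the HGF scaffold library, with 5953189, 5791715 and 1450757 UMIs, so the HGF scaffold values rest on the fewest counts. Of all 5326 nuclei, 5320 were kept, and the libraries shared at most 3 barcodes in any pair. Nuclei were grouped into 22 clusters without using the 10 genes, and clusters were named from marker genes with the ending "-like". Each of the 9 classes with at least 50 nuclei in both the untreated and the scaffold library had UMIs for every marker of its own list found in the files, in both. Myeloid markers were also detected in the classes that are not myeloid-like, so such detection alone does not identify a class. The fibroblast-like cluster was led by the matrix genes Col2a1, Tnc, Tnn and Postn, so it included genes of cartilage matrix. The mix of classes differed greatly between libraries. Myeloid-like nuclei (microglia and macrophages) made up 11.2% of the untreated, 25.3% of the scaffold and 45.3% of the HGF scaffold nuclei, and fibroblast-like nuclei 11.5%, 5.35% and 7.29%. Leptomeningeal-like nuclei made up 17.6%, 14.0% and 6.41%.

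Levels are given as CPM, the summed UMIs of a gene over the nuclei of a class per 1000000 UMIs of that class and library. Where 3 values follow each other, they stand in the order untreated, scaffold, HGF scaffold. Intervals are exact, cover 95% and account for counting error only. A ratio between libraries met the size rule when it was at least 2 or at most 0.5 and the gene had 20 UMIs or more over both libraries, in all nuclei or in a class with at least 50 nuclei in each. CPM is not divided by gene length, so levels are compared for 1 gene at a time, across classes and libraries. Classes are ranked only where they held at least 50 nuclei in the library, and "class" below means such a class. Smaller ones were left out of every order, for example mural-like nuclei with 12 Tgfb2 UMIs (591 CPM) untreated and 43 Tgfbr2 UMIs (921 CPM) with the scaffold. Other settings of the processing are named beside a ratio past the rule where one of them left it short of the rule, with the value that lay farthest toward 1 or past it. Other moves, also of ratios short of the rule, are given for some ratios only.

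In all nuclei together, the scaffold library held more Tgfbr1 and Tgfbi and less Ltbp1 than the untreated library. Tgfbi was 157 CPM in the untreated library (interval 147 to 167), 404 in the scaffold library (388 to 420.4) and 557 in the HGF scaffold library (519 to 597). The ratio of scaffold over untreated was 2.57 (2.38 to 2.78). The 3 intervals did not overlap, and Tgfbi was lowest in the untreated and highest in the HGF scaffold library. Tgfbr1 was 84.2 CPM in the untreated library (interval 77 to 91.9), 191 in the scaffold library (179 to 202) and 267 in the HGF scaffold library (241 to 295), a ratio of 2.26 (2.03 to 2.52) for scaffold over untreated. Its order over the libraries was that of Tgfbi. In the other direction, Ltbp1 was 219.9 CPM in the untreated library (interval 208 to 232), 109.5 in the scaffold library (101 to 118) and 80.8 in the HGF scaffold library (66.8 to 96.8), and the ratio was 0.498 (0.452 to 0.548). The untreated library stood above both implanted ones. By the size rule 2 of the 10 genes were higher with the scaffold and 1 was lower, where 7.12% of all 11931 genes with enough UMIs were past the rule upward and 3.96% downward. The median log2 ratio of the 10 genes was -0.23, beside 0.04 over all genes. All-nuclei values cannot tell fewer cells of a type from less RNA per cell. With every nucleus given equal weight, Tgfbi stood at 1.92, Tgfbr1 at 1.94 and Ltbp1 at 0.559 times the untreated level, and none met the rule. Thinning each nucleus to 500 UMIs also left none past it.

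Betaglycan (Tgfbr3) lay just outside the rule in the lower direction. It was 436 CPM in the untreated library (interval 419.5 to 453), 232 in the scaffold library (219.6 to 245) and 213 in the HGF scaffold library (190.2 to 238), and the ratio of scaffold over untreated was 0.532 (0.497 to 0.568). Both implanted libraries lay below the untreated one and their intervals overlapped. Tgfb1 was 55.8, 94.5 and 91.8 CPM in the 3 libraries, a scaffold over untreated ratio of 1.69 (1.47 to 1.95). The type II receptor gene Tgfbr2 was 359, 438 and 448 CPM, a ratio of 1.22 (1.15 to 1.29). These genes were higher in both implanted libraries, by less than the rule asks. The other 2 ligands were lower with the scaffold. Tgfb2 was 109, 78.8 and 84.2 CPM, a ratio of 0.723 (0.640 to 0.816). Tgfb3 was 14.6, 8.64 and 8.28 CPM, a ratio of 0.591 (0.408 to 0.846) that rests on 87 and 50 UMIs. Ltbp2 was 80.7, 57.4 and 46.9 CPM, with a ratio of 0.711 (0.616 to 0.819). Smad7 was 104, 104 and 88.4 CPM, and its ratio was 1.0 (0.894 to 1.12).

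**Figure D1:**
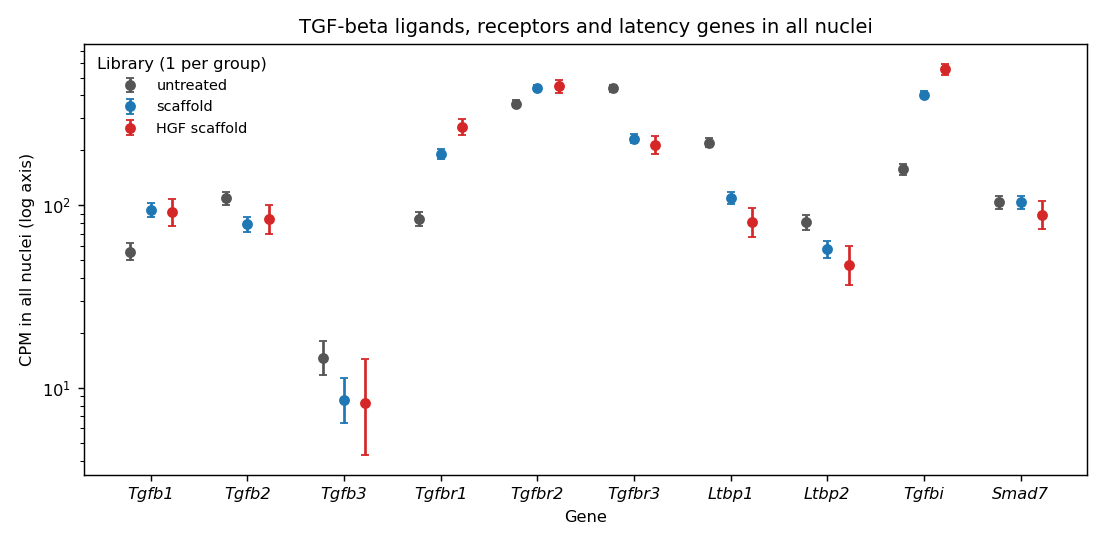
CPM of each of the 10 genes in all nuclei (log axis), with 1 point per library (grey untreated, blue scaffold, red HGF scaffold) and exact 95% Poisson intervals for counting error. Tgfbr1 and Tgfbi stood higher in both implanted libraries, Tgfbr3 and Ltbp1 lower, and Smad7 stayed near 104 to 88.4 CPM.

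Between the implanted libraries, none of the 10 genes met the size rule in all nuclei, where 2.15% of all 11329 genes with enough UMIs were past the rule upward and 5.51% downward. The nearest was Tgfbr1, 1.40 (1.25 to 1.58) for HGF scaffold over scaffold, followed by Tgfbi at 1.38 (1.27 to 1.5). Ltbp1 had the lowest ratio, 0.737 (0.600 to 0.899). The intervals of these 3 genes excluded 1, and those of the other 7 genes did not. HGF scaffold over untreated uses the same libraries again. There Tgfbi (3.55) and Tgfbr1 (3.17) were past the rule upward and Tgfbr3 (0.489) and Ltbp1 (0.367) downward, of which Tgfbr1 (1.67) and Tgfbr3 (0.647) fell short with a fixed class mix, where 9.27% of all 11473 genes with enough UMIs were past the rule upward and 11.7% downward.

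The share of each class in a library moves the all-nuclei values. With each class given its mean share of UMIs over the 3 libraries, a comparison added after the values were seen, the scaffold over untreated ratio was 2.43 for Tgfbi, 1.45 for Tgfbr1, 0.581 for Ltbp1 and 1.15 for Tgfb1. Only Tgfbi of these 4 met the rule there. For HGF scaffold over scaffold the same weighting gave 1.01 for Tgfbi and 1.15 for Tgfbr1. These weighted ratios have no interval and also use classes under 50 nuclei. In the HGF scaffold library, neuron-like nuclei numbered 32 with 8 Tgfbi UMIs, and astrocyte-like nuclei 19 with 4. The source of the transcripts also differed. Of all Tgfbi UMIs, 39.4% came from fibroblast-like nuclei in the untreated library and 30.9% and 62.9% from myeloid-like nuclei in the scaffold and HGF scaffold libraries. For Tgfbr1 the myeloid-like part was 17.0%, 33.5% and 61.5%, and for Tgfb1 it was 13.0%, 32.7% and 50.4%.

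The promoters of the 4 genes that stood farthest from a ratio of 1 in both implanted libraries are printed here, since the pair Tgfbr1 and Tgfbi was higher and the pair Ltbp1 and Tgfbr3 lower. The sequences are RefSeq's, from the rat build GRCr8, and give the 250 bases before the annotated start, 5′ to 3′ on the gene's strand. All 10 genes had an entry in that table. Capitals mark a GC box (GGGCGG, either strand) or a cAMP response element (TGACGTCA). Tgfbr1 lies at chr5:66449148-66449397, plus strand, Tgfbi at chr17:7990114-7990363, minus strand, Ltbp1 at chr6:26177302-26177551, minus strand and Tgfbr3 at chr14:2634044-2634293, plus strand.
Tgfbr1: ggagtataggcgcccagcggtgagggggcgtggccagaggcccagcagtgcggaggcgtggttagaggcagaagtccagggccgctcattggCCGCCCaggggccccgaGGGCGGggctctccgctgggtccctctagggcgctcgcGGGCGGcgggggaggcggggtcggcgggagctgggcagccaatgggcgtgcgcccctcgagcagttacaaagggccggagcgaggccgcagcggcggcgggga
Tgfbi: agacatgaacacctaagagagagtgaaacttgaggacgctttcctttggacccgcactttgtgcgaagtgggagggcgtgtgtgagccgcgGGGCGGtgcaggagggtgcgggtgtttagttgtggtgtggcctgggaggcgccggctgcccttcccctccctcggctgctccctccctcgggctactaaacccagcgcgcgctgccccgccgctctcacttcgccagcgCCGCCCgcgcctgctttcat
Ltbp1: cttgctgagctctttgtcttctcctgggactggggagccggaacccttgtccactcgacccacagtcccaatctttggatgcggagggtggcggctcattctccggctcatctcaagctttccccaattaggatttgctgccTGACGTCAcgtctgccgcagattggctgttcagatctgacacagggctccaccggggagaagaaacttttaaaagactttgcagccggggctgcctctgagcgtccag
Tgfbr3: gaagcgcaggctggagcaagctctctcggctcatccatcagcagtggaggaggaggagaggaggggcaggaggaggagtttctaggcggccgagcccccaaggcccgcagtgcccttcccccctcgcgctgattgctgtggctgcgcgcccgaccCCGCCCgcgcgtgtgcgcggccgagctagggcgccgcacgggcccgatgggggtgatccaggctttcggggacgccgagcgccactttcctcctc
Tgfbr1 had 3 GC boxes, Tgfbi and Smad7 had 2 each, and Tgfbr2, Tgfbr3 and Ltbp2 had 1 each. A GC box was found in 30.5% of 33469 rat promoters of this length. Ltbp1 alone of the 10 had a cAMP response element, which 1.59% of all promoters had. None of the 10 had a Smad palindrome (GTCTAGAC, in 0.173% of all), an AP-1 site (TGANTCA, 6.34%) or a TATA box (TATAAA, 12.9%) in this window. A match describes the letters only, not a bound site. GC content was 75.6% for Tgfbr1, 65.6% for Tgfbi, 56.8% for Ltbp1 and 71.2% for Tgfbr3, beside a median of 51.2% over all promoters.

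Of the ligands, Tgfb1 was highest in myeloid-like nuclei and Tgfb2 and Tgfb3 in fibroblast-like nuclei, among untreated classes of at least 50 nuclei. Tgfb1, the ligand of immune regulation and wound repair, stood at 193 CPM in untreated myeloid-like nuclei (139 to 259.5). The next class, leptomeningeal-like, had 88.3 CPM, and the intervals did not overlap. In the scaffold library myeloid-like nuclei had 162 CPM and neutrophil-like nuclei 123, within each other's counting error. In the HGF scaffold library, leptomeningeal-like nuclei had the highest value, 150 CPM (68.7 to 285) on 9 UMIs. Myeloid-like nuclei followed at 124 CPM, and the intervals overlapped. Within myeloid-like nuclei neither implanted library stood above the untreated one. The Tgfb1 ratio there was 0.839 (0.599 to 1.20) for scaffold over untreated and 0.765 (0.569 to 1.02) for HGF scaffold over scaffold. Endothelial-like nuclei had 68.8, 117 and 59.5 CPM of Tgfb1 in the 3 libraries. The middle value stood above both others. The lowest class was oligodendrocyte-like in the untreated library, with 13.2 CPM, where the scaffold library had 43.6 and the HGF scaffold library 79.8.

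Tgfb2, the ligand that depends most on betaglycan, was highest in fibroblast-like nuclei among the named classes of at least 50 nuclei in all 3 libraries. Its level there was 257 CPM in the untreated library, 250.5 in the scaffold library and 245 in the HGF scaffold library. The 3 values lay within each other's intervals, and scaffold over untreated was 0.974 (0.727 to 1.29). Over the other settings that ratio ran from 0.512 to 1.31. Astrocyte-like nuclei followed at 158 CPM in the untreated and 146 CPM in the scaffold library, and in OPC-like nuclei (oligodendrocyte precursors) Tgfb2 was 133 and 73.8 CPM. Myeloid-like nuclei had less, at 62.7, 39.7 and 38.7 CPM in the 3 libraries. The class highest for Tgfb1 in the untreated and scaffold libraries was thus among the lower ones for Tgfb2. Tgfb3 was too sparse for most classes. Fibroblast-like nuclei of the untreated library had the most, 28 UMIs or 41.2 CPM (27.3 to 59.5). With the scaffold they had 4 UMIs, a ratio of 0.348 (0.0886 to 0.994) that was 0.738 with equal weight per nucleus. In untreated myeloid-like nuclei no Tgfb3 UMI was found among 223182 UMIs of the class, where 3 counts would be 13.4 CPM and the exact upper limit was 16.5 CPM.

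**Figure D2:**
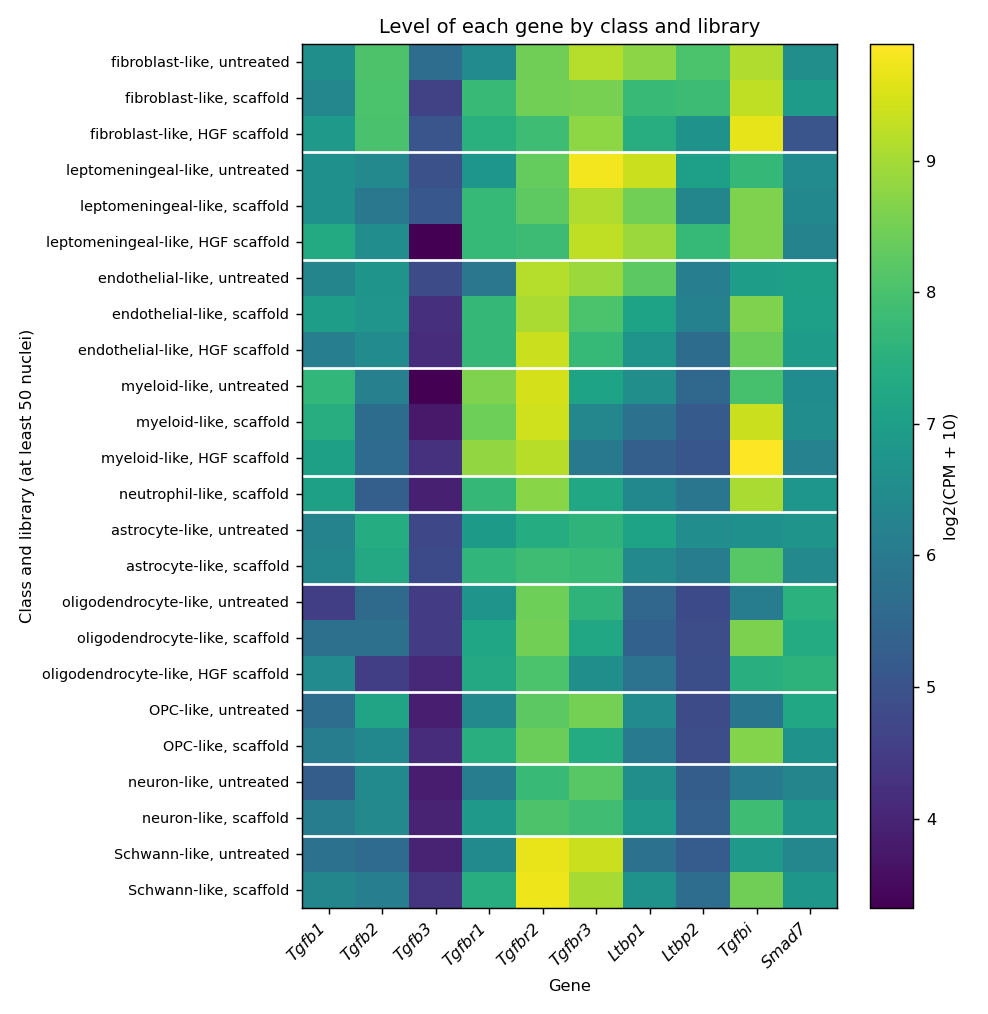
Level of each gene, as log2(CPM + 10), in every class with at least 50 nuclei in a library (1 row per class and library, 1 column per gene). Tgfbr1 was highest in the myeloid-like rows, Ltbp1 and Tgfbr3 in the leptomeningeal-like row of the untreated library, and Tgfb2 in the fibroblast-like rows.

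Receptor genes also differed by class. Among classes of at least 50 nuclei, the type I receptor gene Tgfbr1 was highest in myeloid-like nuclei, at 381 CPM in the untreated library, 334 in the scaffold library and 439 in the HGF scaffold library. In each library these nuclei stood apart from the next class, and the ratio of scaffold over untreated was 0.877 (0.691 to 1.12). HGF scaffold over scaffold was 1.31 (1.11 to 1.55). Both ratios were short of the size rule, and over the other settings scaffold over untreated ran from 0.809 to 1.69 in this class. Endothelial-like nuclei had the lowest Tgfbr1 of the untreated library, 50.4 CPM (36.1 to 68.3), and 197 and 198 CPM in the scaffold and HGF scaffold libraries. Both implanted libraries stood well above the untreated one, at 3.92 (2.79 to 5.62) for scaffold over untreated. Fibroblast-like nuclei had 79.4, 204 and 168 CPM, a scaffold over untreated ratio of 2.57 (1.74 to 3.80). When nuclei were classed one by one by marker score, that ratio was 0.934. Leptomeningeal-like (2.04), OPC-like (2.21) and Schwann-like nuclei (2.07) also met the rule upward, and the interval in Schwann-like nuclei reached 0.946. The ratio was 1.82 in leptomeningeal-like nuclei with equal weight per nucleus, and 1.93 in OPC-like and 1.86 in Schwann-like nuclei with TMM scaling, all short of the rule. Neuron-like (1.85), astrocyte-like (1.76) and oligodendrocyte-like nuclei (1.43) did not.

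Markers of myeloid cells were found in each of the 8 other classes compared and were higher with the scaffold in all of them, as Tgfbr1 was. All 15 myeloid markers had UMIs in endothelial-like nuclei of both libraries, and their summed level was 1188 CPM untreated and 4140.3 CPM with the scaffold. Over the 8 classes the sum ranged from 841 to 1435 CPM in the untreated and from 2407 to 4140.3 CPM in the scaffold library. At least 14 of the 15 markers were detected in each, and those at 0 were P2ry12 or Cd163. Myeloid-like nuclei had 6380.4 and 8304 CPM. Per 100 myeloid-marker UMIs, the scaffold library held 4.02 Tgfbr1 UMIs in myeloid-like nuclei, 4.01 in oligodendrocyte-like, 4.39 in neuron-like, 4.77 in endothelial-like, 5.93 in fibroblast-like, 6.33 in leptomeningeal-like and 7.39 in astrocyte-like nuclei, the highest of the classes. In the untreated library the measure was 5.97 in myeloid-like nuclei and ran from 4.24 in endothelial-like to 9.44 in fibroblast-like nuclei. For Tgfbr2 the same measure in the scaffold library was 8.12 in myeloid-like, 10.3 in oligodendrocyte-like, 12.5 in endothelial-like and 21.9 in Schwann-like nuclei. In each of the 8 classes the summed markers of its own list were lower with the scaffold, for example 4899.7 and 2489 CPM for the endothelial list in endothelial-like nuclei. The part of RNA from other cells in the class ratios was not tested.

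**Figure D3:**
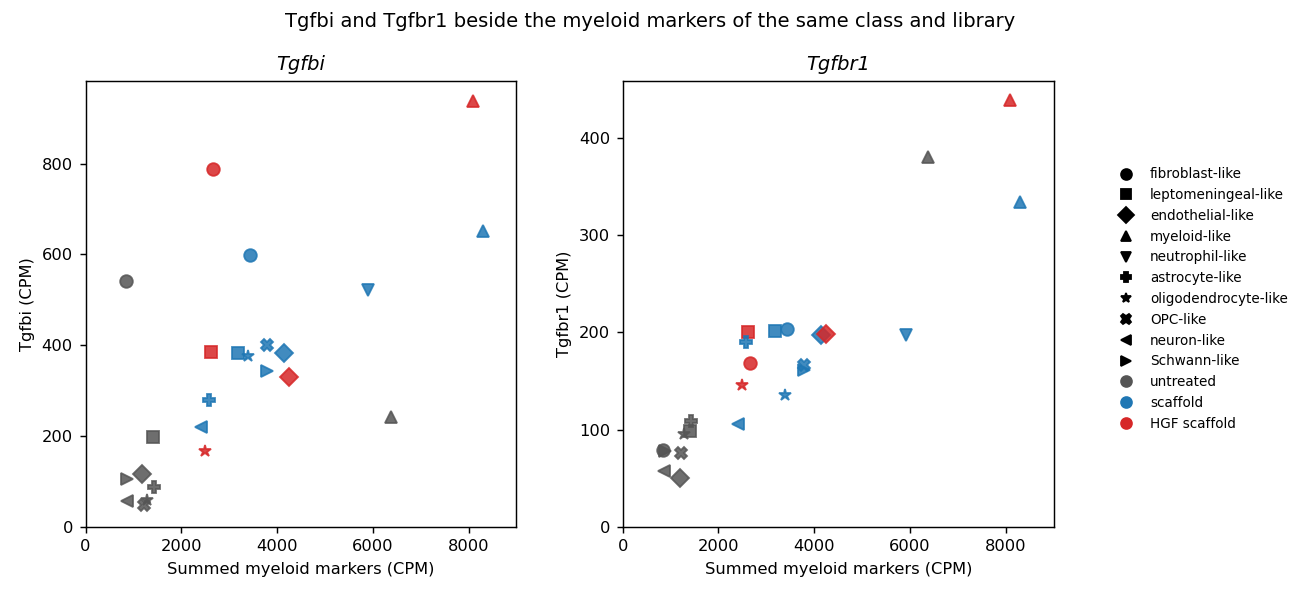
CPM of Tgfbi (left) and Tgfbr1 (right) against the summed CPM of 15 myeloid markers in the same class and library, 1 point per class (shape) and library (colour). In the scaffold library each of the 8 other classes had at least 2407 CPM of myeloid markers, more than any such class of the untreated library, and for Tgfbi the fibroblast-like points lie above the other classes that are not myeloid-like.

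The type II receptor gene Tgfbr2 was broadly detected, and it differed less between libraries than between classes. In Schwann-like nuclei it was 799 CPM in the untreated and 829 CPM in the scaffold library, the highest of the classes of at least 50 nuclei. Myeloid-like nuclei, at 699, 675 and 572 CPM in the 3 libraries, lay within their counting error, and endothelial-like nuclei had 561, 517 and 651 CPM. No class with enough nuclei met the rule in either comparison as reported. Over the other settings, scaffold over untreated in myeloid-like nuclei ran from 0.721 to 2.05. The highest scaffold over untreated ratio was 1.40 (0.898 to 2.19) in astrocyte-like nuclei, and the lowest HGF scaffold over scaffold ratio 0.633 (0.403 to 0.966) in fibroblast-like nuclei. Astrocyte-like nuclei had the lowest level of the classes compared, 158 CPM in the untreated and 221 CPM in the scaffold library. Tgfbr3, in contrast, was lowest in myeloid-like nuclei at 129.9, 72.3 and 53.5 CPM. Leptomeningeal-like nuclei were the highest named class of at least 50 nuclei, at 869 CPM in the untreated library, 538 in the scaffold library and 601 in the HGF scaffold library. In the untreated library they stood apart from every other named class, the unnamed nuclei together had 882 CPM, and with the scaffold Schwann-like nuclei, at 515 CPM, lay within their counting error. Scaffold over untreated was below 1 in 8 of 9 classes, from 0.437 (0.301 to 0.622) in OPC-like to 0.801 (0.684 to 0.938) in neuron-like nuclei, and 1.13 (0.736 to 1.75) in astrocyte-like nuclei. Only OPC-like nuclei met the rule, and with a marker score per nucleus their ratio was 0.706.

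Ltbp1, which anchors latent TGF-beta in the matrix, was highest in leptomeningeal-like nuclei, as Tgfbr3 was among the named classes. Its level there was 644 CPM in the untreated library, 352 in the scaffold library and 468 in the HGF scaffold library, and in each library they stood apart from fibroblast-like nuclei, the next class. The level was higher in the smaller leptomeningeal-like cluster, led by Slc6a13, Slc6a20 and Aldh1a2. Its Ltbp1 was 947, 582 and 727 CPM in the 3 libraries, against 317, 212 and 203 CPM in the cluster led by Ptgds, Igf2 and Igfbp2. For Tgfbr3 the same clusters had 1240.2, 921 and 991 CPM and 469, 305 and 203 CPM. Both genes therefore marked the first cluster more than the second. With the scaffold, Ltbp1 was lower in fibroblast-like nuclei, from 419 to 208 CPM, a ratio of 0.495 (0.367 to 0.659). Thinned to 500 UMIs it was 0.880, and 5 of 15 settings in all left it short of the rule. It was lower in endothelial-like nuclei too, from 291 to 129 CPM or 0.443 (0.357 to 0.549), and 0.585 with equal weight per nucleus. Leptomeningeal-like nuclei had 0.546 (0.439 to 0.675) and missed the rule. Neuron-like nuclei had 1.23 (0.949 to 1.59) and oligodendrocyte-like nuclei 0.899 (0.470 to 1.68), with intervals that included 1. In the HGF scaffold library fibroblast-like Ltbp1 was 161 and endothelial-like Ltbp1 95.2 CPM, again below the untreated values. In fibroblast-like nuclei the summed fibroblast markers were 18982, 10537 and 16649.7 CPM in the 3 libraries, so they too were lower with the scaffold, and their part in the Ltbp1 ratio was not tested.

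**Figure D4:**
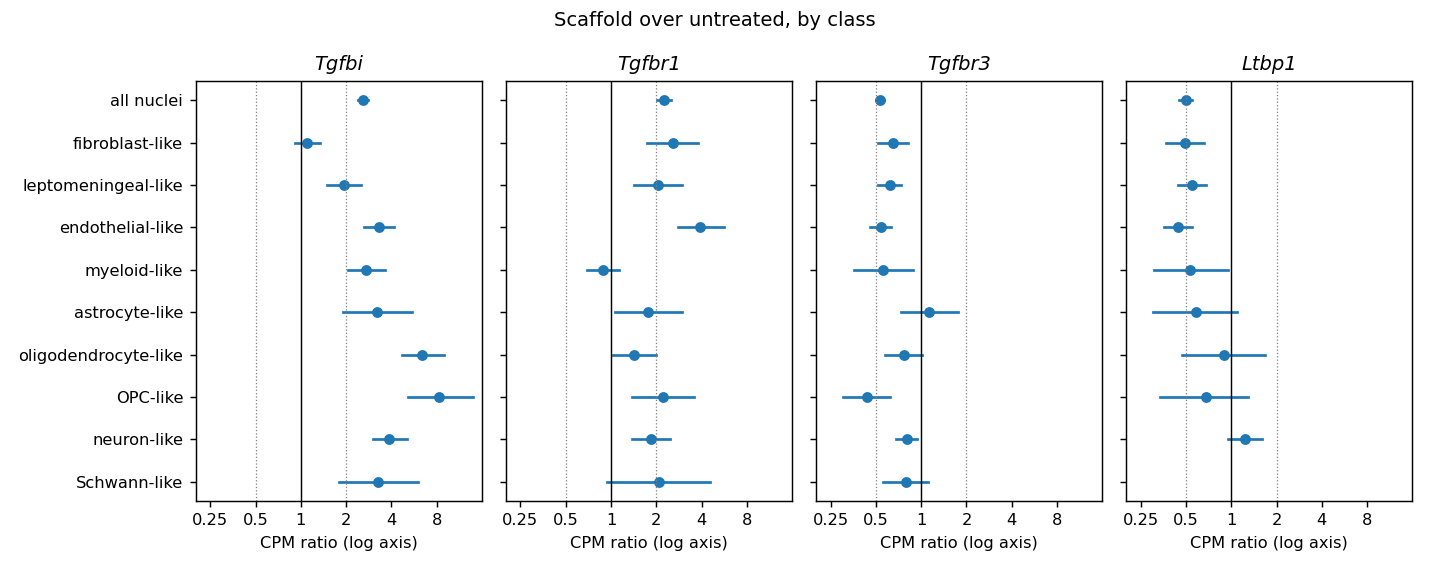
CPM ratio of scaffold over untreated (log axis) for Tgfbi, Tgfbr1, Tgfbr3 and Ltbp1 in all nuclei and in each class with enough nuclei and UMIs, with exact 95% intervals for counting error and dotted lines at 0.5 and 2. Tgfbi lay above 2 in 7 of 9 classes and near 1 in fibroblast-like nuclei, Tgfbr1 lay below 1 in myeloid-like nuclei only, and Tgfbr3 and Ltbp1 lay mostly below 1.

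Ltbp2, which unlike Ltbp1 does not bind latent TGF-beta, was highest in fibroblast-like nuclei among the named classes of the untreated and scaffold libraries. Its level there was 251 CPM in the untreated library, 218 in the scaffold library and 91.8 in the HGF scaffold library. The HGF scaffold value rests on 12 UMIs, and its ratio over the scaffold library was 0.421 (0.206 to 0.789). That ratio was 1.17 after thinning to 500 UMIs and 1.24 when each library was clustered alone, and 5 of 15 settings in all left it short of the rule. In leptomeningeal-like nuclei the implanted libraries stood in the other order, with 119.5, 70.4 and 200.4 CPM in the 3 libraries. HGF scaffold over scaffold was 2.85 (1.29 to 5.96) there, on 23 and 12 UMIs, and 1.09 with a marker score per nucleus. The unnamed cluster led by Slc26a7, Slc47a1 and Foxp2, with 2 leptomeningeal markers, also held Ltbp2 and Tgfb2. Ltbp2 was 221, 216 and 57.8 CPM in it, and Tgfb2 191, 93.7 and 289 CPM. The HGF scaffold over scaffold ratio was 0.267 (0.0838 to 0.659) for Ltbp2, on 60 scaffold and 5 HGF scaffold UMIs. For Tgfb2 it was 3.08 (1.71 to 5.56), on 26 and 25 UMIs. The 2 genes thus differed in opposite directions in these nuclei, and other settings were not run for this cluster.

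Tgfbi had its highest level in fibroblast-like nuclei of the untreated library and in myeloid-like nuclei of the implanted ones, where the intervals of these 2 classes overlapped. Fibroblast-like nuclei had 541 CPM in the untreated library, 598 in the scaffold library and 788 in the HGF scaffold library. Neither comparison met the rule there, with 1.10 (0.915 to 1.33) for scaffold over untreated and 1.32 (1.02 to 1.70) for HGF scaffold over scaffold. Over the other settings the former ran from 0.638 to 2.26. In myeloid-like nuclei Tgfbi was 242 CPM in the untreated library, 652 in the scaffold library and 937 in the HGF scaffold library. The 3 intervals did not overlap, and the ratios were 2.70 (2.04 to 3.62) and 1.44 (1.28 to 1.61). With nuclei of at least 500 genes only, the first of these was 0.838, and 5 of 16 settings in all left it short of the rule. Different clusters made up the class in each library. The cluster led by Alpk3, Blnk and Slc2a5 held 208 of the 251 untreated myeloid-like nuclei, while the cluster led by Arg1, Htr7 and Itgam and the one led by Lyz2, Mmp9 and Mmp13 held 288 and 152 of the 549 scaffold nuclei. Within the first, Tgfbi was 107, 181 and 346 CPM in the 3 libraries, and scaffold over untreated was 1.70 (0.890 to 3.27). In the Arg1 cluster it was 994, 665 and 1039 CPM, and in the Lyz2 cluster 665, 809 and 856 CPM. The few untreated nuclei of these clusters, 15 and 28, thus had Tgfbi in the range of the implanted libraries. Between the implanted libraries, the Tgfbi ratio was 1.56 (1.35 to 1.81) in the Arg1 cluster and 1.06 (0.868 to 1.29) in the Lyz2 cluster. These clusters were taken one by one after the class values had been seen.

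**Figure D5:**
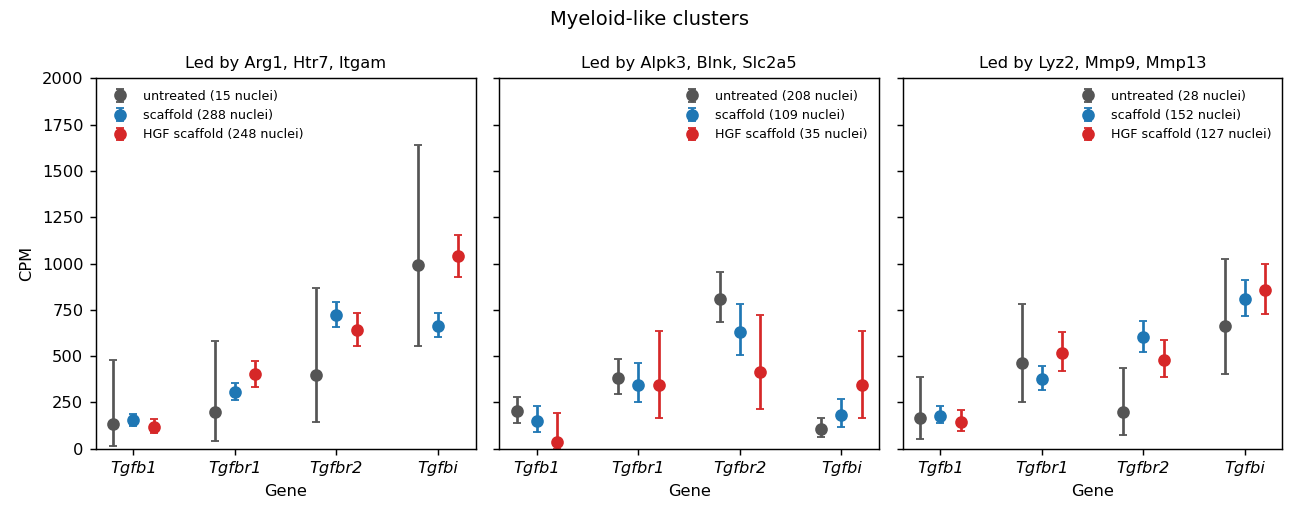
CPM of Tgfb1, Tgfbr1, Tgfbr2 and Tgfbi in each of the 3 myeloid-like clusters, with 1 point per library and exact 95% Poisson intervals. The cluster led by Alpk3, which held most untreated myeloid-like nuclei, had the least Tgfbi (107 CPM untreated), and the clusters led by Arg1 and Lyz2 had 665 and 809 CPM with the scaffold.

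Outside these 2 classes, every named class with enough nuclei had a higher Tgfbi level with the scaffold than untreated. In OPC-like nuclei it was 48.1 CPM in the untreated and 399.8 CPM in the scaffold library, a ratio of 8.30 (5.16 to 14.0) that ran from 2.76 with a marker score per nucleus to 12.8 over the settings tried. Oligodendrocyte-like nuclei had 58.9 CPM in the untreated library, 376 in the scaffold library and 166 in the HGF scaffold library, with 6.39 (4.67 to 8.90) for scaffold over untreated and 0.442 (0.279 to 0.670) for HGF scaffold over scaffold. The first was 3.55 with a marker score per nucleus. The second was 0.802 with libraries clustered alone, and 7 of 15 settings in all left it short of the rule. The HGF scaffold value lay between the other two. Neuron-like (3.88), endothelial-like (3.31), Schwann-like (3.24) and astrocyte-like nuclei (3.19) also met the rule, and leptomeningeal-like nuclei, at 1.94 (1.49 to 2.52), did not. In the unnamed nuclei Tgfbi was 234, 233 and 252 CPM, a scaffold over untreated ratio of 0.997 (0.730 to 1.36), while their summed myeloid markers were 692, 2551 and 1765 CPM. The summed myeloid markers in oligodendrocyte-like nuclei were 1286, 3388 and 2493 CPM, in the same order as Tgfbi. Per 100 myeloid-marker UMIs, the scaffold library held 7.85 Tgfbi UMIs in myeloid-like, 11.1 in oligodendrocyte-like, 10.6 in OPC-like, 9.09 in neuron-like, 9.22 in endothelial-like and 12 in leptomeningeal-like nuclei. Fibroblast-like nuclei had 17.4, and 64.3 in the untreated library.

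Shares of nuclei with a Tgfbi UMI were compared at 500 UMIs per nucleus. In myeloid-like nuclei the share was 8.76%, 20.9% and 31.0% in the 3 libraries, and 13.9%, 43.0% and 48.5% at full depth. Neuron-like nuclei, which had low Tgfbi in CPM, had thinned shares of 3.07% and 6.03% in the untreated and scaffold libraries, against 18.4% and 39.7% at full depth. Median depth was 5620.0 and 4290.0 UMIs in these, and 798 and 1715 UMIs in myeloid-like nuclei. At full depth in the untreated library the neuron-like share was above the myeloid-like one, and at matched depth it was below. The thinned share of myeloid-like nuclei with a Tgfbr1 UMI was 15.5%, 15.3% and 17.1%, close together as the CPM values were. For Tgfbi at matched depth, the myeloid-like share with the scaffold thus lay above the neuron-like share.

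Smad7, the inhibitor of the type I receptor, was highest in oligodendrocyte-like nuclei of every library, among classes of at least 50 nuclei. Its level there was 172 CPM in the untreated library, 155 in the scaffold library and 179 in the HGF scaffold library. The next named classes of that size were OPC-like nuclei in the untreated library (142 CPM) and endothelial-like nuclei in the others (121 and 111 CPM), and their intervals overlapped those of the first. No class met the rule for scaffold over untreated as reported, where ratios ran from 0.655 (0.391 to 1.07) in OPC-like to 1.39 (0.546 to 3.44) in Schwann-like nuclei. Over the other settings the ratio ran from 0.572 to 2.18 in myeloid-like and from 0.974 to 2.81 in Schwann-like nuclei. In fibroblast-like nuclei of the HGF scaffold library 3 Smad7 UMIs were found against 31 with the scaffold, a ratio of 0.207 (0.0405 to 0.663). With nuclei of at least 500 genes only, it was 1.02.

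Counted by class, the members past the size rule differed. The 2 percentages after each class give the shares of all genes with enough UMIs that were past the rule there upward and downward, in that order. For scaffold over untreated in fibroblast-like nuclei Tgfbr1 was past the rule upward and Tgfb3 and Ltbp1 downward (8.24% and 8.75% of all genes). In endothelial-like nuclei Tgfbr1 and Tgfbi were higher and Ltbp1 and Tgfb3 lower (10.1% and 4.88% of all genes). Tgfb3 there rests on 15 and 9 UMIs and turned to 1.30 with equal weight per nucleus. Leptomeningeal-like nuclei had only Tgfbr1 past the rule (6.2% and 3.86% of all genes), myeloid-like nuclei only Tgfbi (9.81% and 8.32% of all genes) and astrocyte-like nuclei only Tgfbi (5.44% and 4.14% of all genes). Oligodendrocyte-like nuclei had Tgfbi and Tgfb1 higher (10.4% and 2.28% of all genes), and neuron-like nuclei the same pair (8.84% and 2.06% of all genes), where Tgfb1 was 1.83 with TMM scaling. In OPC-like nuclei Tgfbi and Tgfbr1 were higher and Tgfbr3 lower (10.7% and 3.61% of all genes). Schwann-like nuclei had Tgfbi and Tgfbr1 higher among 5 genes with enough UMIs (9.2% and 8.2% of all genes). The unnamed nuclei had none past it (7.42% and 3.15% of all genes). Between the implanted libraries, 5 named classes had enough nuclei. Fibroblast-like nuclei had Ltbp2 and Smad7 lower (4.43% and 8.42% of all genes). Leptomeningeal-like nuclei had Ltbp2 higher (4.78% and 12.5% of all genes). Oligodendrocyte-like nuclei had Tgfbi and Tgfb2 lower, the latter on 2 UMIs with the HGF scaffold (3.19% and 9.03% of all genes). In the unnamed nuclei Tgfb2 was higher and Ltbp2 lower (3.69% and 8.62% of all genes). Myeloid-like nuclei had none past the rule (3.57% and 4.05% of all genes). Endothelial-like nuclei had none either (3.32% and 8.63% of all genes), and the nearest there was Tgfb1 at 0.509 (0.277 to 0.872).

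For HGF scaffold over untreated, which uses both outer libraries of the comparisons above, 4 genes were past the rule in all nuclei and the classes with enough nuclei were the 5 named ones and the unnamed nuclei. In fibroblast-like nuclei Tgfbr1 (2.12) was higher and Ltbp1 (0.384), Ltbp2 (0.365) and Smad7 (0.269) lower (7.72% and 12.7% of all genes). Each was short of the rule under 1 or more other settings, with Tgfbr1 at 1.37 by marker score, Ltbp1 at 0.595 and Ltbp2 at 1.31 after thinning, and Smad7 at 0.943 with at least 500 genes. Endothelial-like nuclei had Tgfbr1 (3.94) and Tgfbi (2.85) higher and Tgfbr3 (0.435) and Ltbp1 (0.327) lower (8.4% and 9.53% of all genes). Tgfbr1 was 2.34 with equal weight per nucleus, and Tgfbr3 0.506 at Leiden resolution 2. Their summed endothelial markers were 4899.7 CPM untreated and 4135 CPM with the HGF scaffold, and their myeloid markers 1188 and 4246 CPM. In myeloid-like nuclei Tgfbi was 3.87 (2.92 to 5.23), Tgfbr3 0.412 and Ltbp1 0.347 (10.2% and 8.75% of all genes), again with different clusters in the 2 libraries. Tgfbi was 1.05 there with at least 500 genes, and Ltbp1 0.524 with the members among the variable genes. Leptomeningeal-like nuclei had only Tgfbr1 past the rule (8.44% and 15.6% of all genes), at 2.03 with an interval of 0.991 to 3.83, and 10 of 15 settings in all left it short of the rule, the lowest at 1.12 with at least 500 genes. In oligodendrocyte-like nuclei Tgfb1 (6.03) and Tgfbi (2.82) were higher and Tgfbr3 (0.470) and Tgfb2 (0.346) lower (8.03% and 7.28% of all genes). The Tgfb1 ratio rests on 11 and 12 UMIs and was 1.01 with a marker score per nucleus, where Tgfbr3 was 0.603. Tgfb2 was 0.538 with equal weight per nucleus. The unnamed nuclei had Ltbp1 (0.284) and Ltbp2 (0.421) lower (7% and 9.71% of all genes). In endothelial-like nuclei the 4 genes had the direction they had in all nuclei.

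Other genes of the pathway were read from lists of latency and activation partners, other receptors, Smads and cofactors, inhibitors and target genes. In all nuclei, scaffold over untreated, 2 of 14 latency and activation partners were higher and 1 lower, 0 of 7 other receptors and 0 of 8 Smads and cofactors met the rule, 1 of 12 inhibitors was higher and 2 lower, and 3 of 20 target genes were higher and 4 lower. Over all genes, 7.12% were past the rule upward and 3.96% downward. The count of higher targets was 1 under median-of-ratios scaling and equal weight per nucleus, and that of higher latency and activation partners was 1 with equal weight and when thinned to 500 UMIs. Median log2 ratios were -0.35, -0.01, 0.00, -0.02 and -0.22 in that order, beside 0.04 over all genes. Nrros, which holds latent TGF-beta1 on microglia and macrophages, was 35.1 and 102 CPM in the untreated and scaffold libraries, a ratio of 2.92 (2.49 to 3.43). Mmp9, a matrix protease that can activate the ligand, had a ratio of 3.36 (2.31 to 5.0), and the repressor gene Tgif1 2.15. Itgb6, an integrin subunit that activates latent ligand, had 34 UMIs in the untreated library and 0 in the scaffold library, and was singled out after its values were seen. The proteoglycan genes Bgn and Fmod, whose products bind TGF-beta, were lower, at 0.458 and 0.423. Among the targets, the collagen genes Col1a1 (0.463), Col1a2 (0.448) and Col3a1 (0.405) were lower, as was the matrix-signalling gene Ctgf (0.496). The early response gene Junb was 33.8 and 167 CPM, a ratio of 4.93 (4.23 to 5.77), and Id2 (2.09) and Cdkn1a (2.07) were just past 2. Ctgf, Id2 and Cdkn1a were named after their values were seen. Myeloid-like nuclei held 3.75% of all UMIs in the untreated and 19.1% in the scaffold library, and fibroblast-like nuclei 11.4% and 4.83%. The part of this class mix in the all-nuclei ratios of the pathway genes was not tested.

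Within fibroblast-like nuclei the latency and activation partners had 2 higher and 2 lower of 11, the inhibitors 1 higher and 4 lower of 10 and the targets 1 higher and 5 lower of 16 (8.24% and 8.75% of all genes). Bgn (0.266 (0.194 to 0.358)) and Fmod (0.127 (0.0403 to 0.306)) were lower there too. Col1a1 was 6446 and 2948 CPM in the untreated and scaffold libraries, a ratio of 0.457, and Fn1, the gene of fibronectin, had 0.431. Col1a1, Col1a2, Col3a1 and Postn of the target list and Dcn of the inhibitor list are themselves markers of this class. Target genes past the rule, higher and lower, were 6 and 0 of 11 in oligodendrocyte-like nuclei (10.4% and 2.28% of all genes). They were 2 and 5 of 13 in myeloid-like (9.81% and 8.32%) and 2 and 2 of 19 in endothelial-like nuclei (10.1% and 4.88%). In leptomeningeal-like nuclei they were 2 and 0 of 16 (6.2% and 3.86%). Astrocyte-like nuclei had 2 and 1 of 13 (5.44% and 4.14%), and neuron-like nuclei 1 and 3 of 18 (8.84% and 2.06%). The summed myeloid markers of oligodendrocyte-like nuclei were 1286 CPM untreated and 3388 CPM with the scaffold, and their part in the target count was not tested. Other settings were not run for the pathway lists by class. In the HGF scaffold library the collagens stood higher again, with Col1a1 at 1.90 and Col3a1 at 1.97 times the scaffold level in fibroblast-like nuclei, just under the rule. In all nuclei, 1 of 13 latency and activation partners (Mmp9, 2.38) and 2 of 20 targets (Col1a1, 2.06, and Acta2, the smooth muscle actin gene, 2.18) were higher for HGF scaffold over scaffold (2.15% and 5.51% of all genes). The target count was 1 under median-of-ratios scaling, equal weight per nucleus and thinning to 500 UMIs, and thinning left 0 latency and activation partners past it. None of the other lists had a member past the rule, while equal weight per nucleus gave 2 lower inhibitors and 1 lower receptor. Fibroblast-like nuclei held 4.83% of all UMIs in the scaffold and 9.02% in the HGF scaffold library, and myeloid-like nuclei 19.1% and 37.4%. The part of these shares in the all-nuclei ratios was not tested. In myeloid-like nuclei Smad3, a carrier of the TGF-beta signal, was 493 and 220.4 CPM in the untreated and scaffold libraries, a ratio of 0.447 (0.356 to 0.565), again with different clusters in the 2 libraries, and the activin receptor gene Acvr1b had 3.16. Collagen transcripts were present in these nuclei as well, with Col1a1 at 2043 and 686 CPM.

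The genes whose levels were most like each member were found by Pearson correlation of log2(CPM + 10) over 24 combinations of class and library, from 10 classes and 8050 genes. These points share libraries and depth, so the correlations are descriptions. For Tgfbr1 they were Ctss (0.96), RGD1559482 (0.95) and Tcirg1 (0.95), with Ctss a lysosomal protease of myeloid cells. For Tgfbi they were Xdh (0.91), Ikbke (0.90) and Gda (0.90). Tgfb1 had Arpc5 (0.82), Lipa (0.81) and Tuba1c (0.81), and Tgfb2 had Prrx1 (0.89), Sulf1 (0.87) and Enah (0.87). The highest for Tgfbr2 were Rngtt (0.87), Sbf2 (0.85) and Maml3 (0.84), and for Tgfbr3 Ptpn13 (0.90), Pknox2 (0.89) and Timp3 (0.89). Ltbp1 had Adamts12 (0.90), Fhl2 (0.89) and Fkbp9 (0.88), Ltbp2 had Pde5a (0.89), Mrc2 (0.89) and Ddr2 (0.88) and Smad7 had St18 (0.89), Rasgrp3 (0.86) and Tmc7 (0.83). The highest of these values was that of Tgfbr1 and the lowest first value that of Tgfb1. Tgfb3 had under 200 UMIs and was left out.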

How the data were processed

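The files deposited by the authors are raw UMI counts, whole numbers for each gene in each nucleus. Per the submitters' processing notes, Cell Ranger 6.0.1 was used. The genome build and annotation are not given in the sources used here. Per the labels' protocols, nuclei were captured with 10x Genomics 3′ gel beads. The depth of each library is given above, and the lowest nucleus held 500, 500 and 501 UMIs. Nuclei were kept if they held 200 genes or more, mitochondrial UMIs of 5% or less and no Scrublet call. Scrublet called 2 of 5326 nuclei, under 0.5%, so it had not worked, and the alternative removed mixed nuclei, which held 3 or more markers for 5 or more of 7 lineages. Clustering used scanpy 1.11.5 (counts scaled to 10000 and logged, 2000 variable genes without the members, 30 components, 15 neighbours, Leiden resolution 1, leidenalg 0.10.2, Python 3.11.15). A cluster took the class with the most markers, at least 3, among its top 100 genes. Counts were summed by class and library and divided by the class total (CPM). Levels carry exact Poisson, ratios exact conditional Clopper-Pearson and shares exact binomial intervals, which cover counting error only. The ratio code was tested on simulated counts. All 10 genes are named in all nuclei, and in a class those with at least 20 UMIs. Of each pathway list the 4 largest ratios with at least 50 UMIs were set to be named, but mainly genes past the size rule are given. The members and all gene lists were chosen with earlier results of these data known. Promoters come from RefSeq's table for GRCr8, by symbol.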

Additional observations from a re-analysis of the deposited data

Results flagged for a closer look

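Ltbp2 differed in opposite directions in fibroblast-like and leptomeningeal-like nuclei between the implanted libraries. HGF scaffold over scaffold was 0.421 (0.206 to 0.789) in fibroblast-like nuclei, from 218 to 91.8 CPM, and it was 1.17 thinned to 500 UMIs and 1.24 with libraries clustered alone. It was 2.85 (1.29 to 5.96) in leptomeningeal-like nuclei, from 70.4 to 200.4 CPM, and 1.09 with a marker score per nucleus. The opposite directions thus did not hold under every setting. Each HGF scaffold value rests on 12 UMIs, and with 1 library per group the difference between the classes was not tested.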

How the results depend on the processing

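No paired analysis was possible because each group had 1 library and the labels carry no shared replicate numbers. Over 198 ratios of the members by class and comparison, 2672 alternative values were computed, of which 2400 stayed within the interval of the reported ratio, 265 lay outside it in the same direction or without a call, and 7 reversed. The minima of 10 and 50 UMIs and no minimum change which genes count, not a ratio. Their 198, 165 and 198 values were thus bound to stay within the interval. They are also among the settings counted beside single ratios. For scaffold over untreated in all nuclei, 2 members were higher and 1 lower as reported. Median-of-ratios scaling and the removal of mixed nuclei each gave 2 lower. Equal weight per nucleus and thinning to 500 UMIs each gave 0 higher and 0 lower. The fixed class mix, added after seeing the data, gave 1 higher and 0 lower, and for HGF scaffold over untreated 1 higher and 1 lower in place of 2 and 2. The reversed ratios for scaffold over untreated were Tgfbr1 in fibroblast-like nuclei at 0.934 with a marker score per nucleus, Tgfb3 in endothelial-like nuclei at 1.30 with equal weight per nucleus, and Tgfbi in myeloid-like nuclei at 0.838 with at least 500 genes per nucleus. For HGF scaffold over scaffold in fibroblast-like nuclei, Ltbp2 was 1.17 when thinned and 1.24 with libraries clustered alone, and Smad7 was 1.02 with at least 500 genes. For HGF scaffold over untreated, thinned Ltbp2 in these nuclei was 1.31. The cause was not tested. The class with the highest level of a member was the same in 23 to 29 of 30 member and library pairs, depending on the setting. Depth limits the HGF scaffold library most, and Tgfb3 in every library.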
